A study of Nannochloropsis oceanica with 18 samples.

Results

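The genes described here are nuclear genes of the alga Nannochloropsis oceanica that moved the same way with light in all 3 strains of the study. They were chosen from TPM (a transcript level scaled for gene length and for the library total). In wild type, in the KO-labelled strain and in the OE-labelled strain, the 3 high-light values and the 3 normal-light values had to be separate, in 1 direction throughout, with a mean of at least 5 TPM over the 18 libraries. Of 10333 nuclear genes, 9494 reached that mean and 249 of these met every condition, which is 2.62% (1.96% higher and 0.664% lower at high light). The 100 with the largest response, ranked by the smallest of their 3 log2 light responses, are the members. A log2 light response is log2 of (mean TPM at high light + 1) over (mean TPM at normal light + 1). Of the 100 members 60 were higher and 40 lower at high light. All 100 passed the count filter used for testing. Since the light responses chose the members, they are given as a description and were not tested. The tests use strain differences averaged over both light levels. Counts of calls within a single light level are given beside them as a description only.

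Polyadenylated RNA was sequenced from 6 groups of 3 flask cultures, all of strain IMET1, a single-celled marine alga that stores oil. The groups were wild type (WT), a strain with the genotype label NO07G02030-ko (KO-labelled) and a strain with the label NO07G02030-oe (OE-labelled), each under normal light (NL) and high light (HL). Light intensity was 50 µmol photons m-2 s-1 for NL and 300 for HL. Every culture had grown at the normal level first and was then kept for 8 days at its own level, with the labels stating biological replicates. The sources used here do not say how the strains were made or whether each is 1 clone. The labels name the cell type Colonial, and no marker could be matched to check it, because the nuclear IDs carry no gene names in the files or in the reference table, which matched 0 of the members.

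Light that exceeds what photosynthesis can use leads algae to acclimate. As background, cells in strong light generally make less of the light-harvesting antenna and its pigments, and more of the proteins that dissipate or detoxify excess excitation and repair photosystem II. In oil-storing algae strong light is also known to favour the flow of carbon into storage lipid. Which of these roles, if any, the members have cannot be stated from their IDs, so they are described by level, direction, strain and position in the ID series.

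Total counts were 14614662 to 18156737 per library. The gene that the labels name as manipulated, NO07G02030, is no member. It stood at 26.1, 29.0 and 32.3 TPM in the 3 NL_WT libraries, 33.0, 14.5 and 17.8 in NL_KO and 26.2, 27.2 and 29.5 in NL_OE. At high light it stood at 11.7, 21.0 and 22.2 TPM in HL_WT, 26.8, 23.8 and 19.4 in HL_KO and 27.7, 26.4 and 25.4 in HL_OE. Averaged over light, edgeR gave it an adjusted p of 0.916 for KO-labelled minus WT (log2 fold change 0.03, SE 0.15) and of 0.605 for OE-labelled minus WT (log2 fold change 0.11, SE 0.15). Its level averaged over light thus does not bear out either genotype label. The HL_OE values lay above all HL_WT values, while NL_OE and NL_WT overlapped. NL_KO replicates 2 and 3 lay below every NL_WT value, while HL_KO replicates 1 and 2 lay above every HL_WT value. RNA level alone also cannot show whether a working product was lost. Every strain direction below is that of the label only. Replicates differed in how alike they were. The mean Pearson correlation of a library with the others of its group, over the 9494 genes, was 0.986 to 0.993 in the OE-labelled strain and 0.885 to 0.975 in the other strains. The lowest values of WT and of the KO-labelled strain were 0.912 in HL_WT replicate 1 and 0.885 in HL_KO replicate 2, with 0.906 in HL_KO replicate 1 and 0.914 in NL_KO replicate 1 close to them. The main counts are also given without HL_WT replicate 1 and HL_KO replicate 2.

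The strongest shared responses were decreases. Of the 10 best-ranked members 9 fell and 1 rose, and of the best 50, 29 fell and 21 rose, although members that rose outnumber those that fell in the full list. The smallest of the 3 responses lay between 1.26-fold and 2.65-fold. Only 1 of the 100 members, NO05G04660, changed at least 2-fold in all 3 strains. Median log2 light responses of the 40 members that fell were -0.77 in WT, -0.90 in KO-labelled and -0.75 in OE-labelled libraries. The 60 that rose had medians of 0.51, 0.61 and 0.44. Over all nuclear genes with a mean of at least 5 TPM the medians were 0.03, 0.01 and 0.03.

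**Figure D1:**
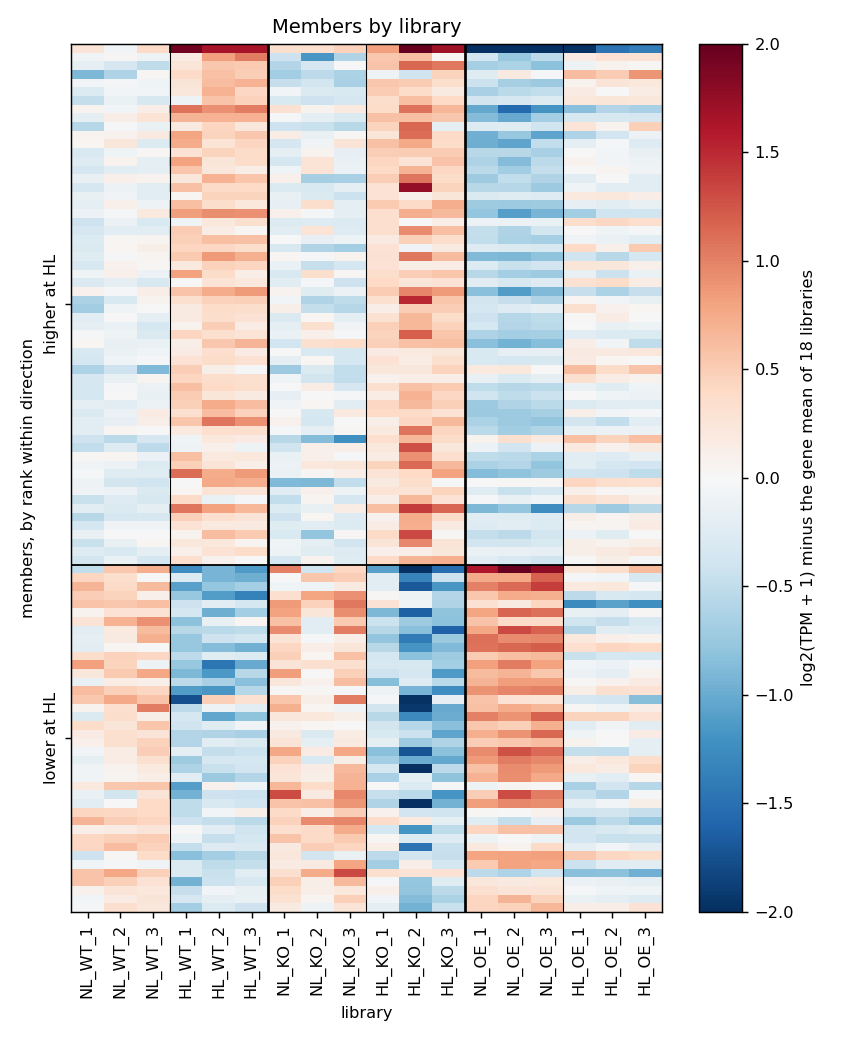
Levels of the 100 members (rows, by rank within each direction) in the 18 libraries (columns), as log2(TPM + 1) minus the mean of the gene over all libraries, with red above and blue below that mean. The 60 upper rows are higher and the 40 lower rows lower in the HL columns of every strain, as the choice requires, while the 6 OE columns are bluer in the upper rows and redder in the lower ones.

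NO05G04660 had the best rank. In WT it stood at 6.38, 14.0 and 16.0 TPM at normal light and at 3.39, 4.41 and 3.69 at high light. In KO-labelled libraries it stood at 19.7, 6.85 and 12.8 TPM at normal light and at 3.86, 0.752 and 2.58 at high light. In OE-labelled libraries it stood at 30.8, 41.7 and 34.8 TPM at normal light and at 11.2, 12.2 and 15.1 at high light. The log2 responses were -1.44, -2.06 and -1.41. The high-light level of the OE-labelled strain was about as high as the normal-light level of the other strains, and its fall had about the same ratio as in WT, with a larger one in the KO-labelled strain.

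NO01G04930 had the next largest shared decrease, with log2 responses of -0.97, -0.96 and -1.05 in WT, KO-labelled and OE-labelled libraries. Its WT levels were 108, 102 and 80.0 TPM at normal light against 65.8, 41.1 and 39.7 at high light. In KO-labelled libraries they were 80.1, 117 and 113 TPM against 67.7, 31.4 and 58.8, and in OE-labelled libraries 135, 137 and 181 TPM against 77.3, 76.2 and 63.2. Its 3 responses were close to each other, a fall of about the same ratio in each strain.

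Among members that rose, NO23G00090 had the best rank. In WT it stood at 309.7, 251 and 339 TPM at normal light and at 990.5, 816 and 819 at high light. In KO-labelled libraries it stood at 326, 329.6 and 358 TPM at normal light and at 459, 1573 and 844 at high light, where HL_KO replicate 2 carried the highest value. In OE-labelled libraries it stood at 59.6, 37.9 and 49.6 TPM at normal light and at 65.4, 92.7 and 99.0 at high light. All 6 values of the OE-labelled strain lay below all 12 of the other strains, at both light levels. The log2 responses were 1.542 in WT, 1.502 in KO-labelled and 0.794 in OE-labelled libraries.

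NO03G00840 rose from a low level. It stood at 11.6, 12.5 and 11.4 TPM in NL_WT against 13.9, 22.2 and 26.2 in HL_WT, and at 8.96, 4.89 and 7.68 in NL_KO against 18.3, 19.2 and 12.6 in HL_KO. In OE-labelled libraries it went from 9.19, 6.81 and 8.22 TPM to 13.8, 15.1 and 15.2. Its lowest high-light value in WT was only slightly above its highest normal-light value.

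Members covered a wide range of levels. Mean TPM over the 18 libraries ran from 5.71 to 742 for those that rose (median 56.0) and from 5.13 to 445 for those that fell (median 66.0), beside a median of 51.5 for all nuclear genes that passed the same cutoff. The most abundant that rose, NO02G02140, averaged 687 ± 77.5 TPM in NL_WT and 1256 ± 44.5 in HL_WT, 662 ± 67.7 and 1013 ± 137 in KO-labelled libraries, and 355 ± 41.6 and 481 ± 55.5 in OE-labelled libraries (mean ± SD, n = 3). NO03G02920, the next most abundant, rose from 701 ± 42.4 to 899 ± 152 TPM in WT, from 699 ± 55.9 to 999.9 ± 285 in KO-labelled and from 477 ± 21.5 to 609.5 ± 22.7 in OE-labelled libraries. Both stood lower in OE-labelled libraries at each light level, with high-light values there below the normal-light values of WT. The most abundant that fell was NO21G00230, at 599.9 ± 55.2 TPM in NL_WT and 297 ± 12.6 in HL_WT, 726 ± 139 and 454 ± 86.9 in KO-labelled libraries, and 338 ± 37.1 and 258 ± 21.6 in OE-labelled libraries. NO16G01570 fell from 434 ± 48.6 to 281 ± 33.2 TPM in WT, from 339 ± 9.51 to 220.5 ± 35.8 in KO-labelled and from 493 ± 44.0 to 294 ± 18.7 in OE-labelled libraries, so that its OE-labelled and WT levels lay close together.

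The 3 strains differed in how far single members moved. The smallest of the 3 responses belonged to the OE-labelled strain for 35 of the 60 members that rose and 18 of the 40 that fell. The largest belonged to the KO-labelled strain for 34 and 20. At least 2-fold increases numbered 3 in WT, 10 in KO-labelled and 0 in OE-labelled libraries, and at least 2-fold decreases numbered 7, 15 and 9. Among members that rose, the responses of NO17G02260 spread most widely, at 0.53 in WT, 1.32 in KO-labelled and 0.35 in OE-labelled libraries. Its KO-labelled libraries started lowest, at 21.3, 17.0 and 12.9 TPM, and reached 40.2, 50.8 and 41.2 at high light, close to the 48.6, 43.3 and 48.7 of HL_OE. Among members that fell, NO25G01130 spread most widely, at -0.48, -1.76 and -0.95. It dropped to 11.9, 3.82 and 9.16 TPM in HL_KO from 27.9, 28.2 and 35.1, and to 12.7, 14.8 and 13.9 in HL_WT from 15.6, 18.4 and 24.6. Whether these responses differ between strains was not tested, since the same responses chose the members.

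**Figure D2:**
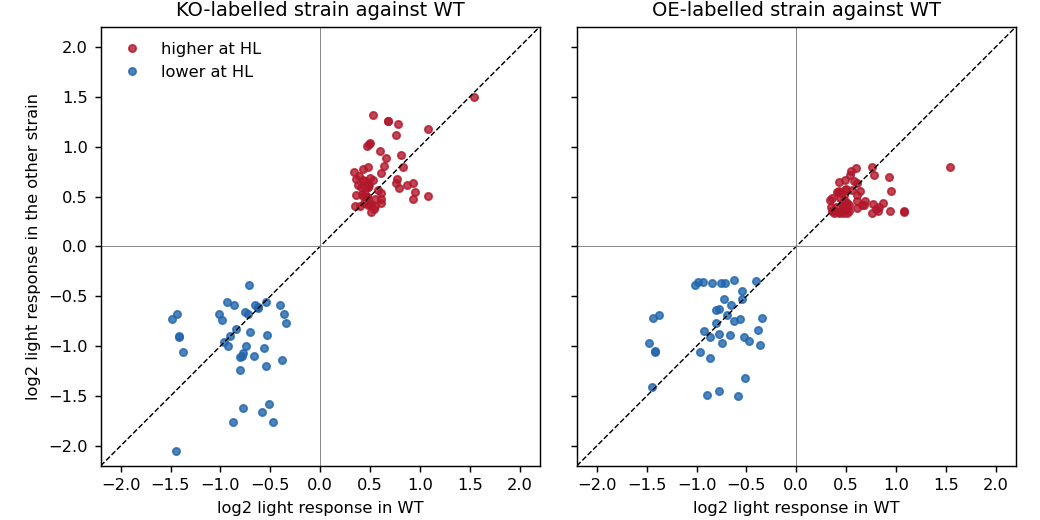
Log2 light responses of the 100 members in the KO-labelled strain (left) and the OE-labelled strain (right), plotted against the response in WT, with the dashed line marking equal responses. Members that rose (red) have medians of 0.51 in WT, 0.61 in KO-labelled and 0.44 in OE-labelled libraries, and members that fell (blue) -0.77, -0.90 and -0.75, and the gap around 0 follows from the ranking.

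On TMM-scaled CPM (counts scaled by library total and edgeR's TMM factors) 0 of the 100 members had a response of the opposite sign in any strain, and 43 of the 60 and 35 of the 40 were still separate in all 3 strains. These are the libraries that chose the members on another scale, so the outcome follows largely from the choice and is no separate support.

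The last ranks lie close together. NO18G00370 at rank 99 and NO15G01490 at rank 100 had smallest log2 responses of 0.336 and 0.335, and both rose. NO13G01270 at rank 101 and NO03G00430 at rank 102, just outside, had 0.331 each, and both rose as well. In HL_OE NO15G01490 stood at 63.7, 69.0 and 61.6 TPM against 54.0, 51.2 and 48.2 in NL_OE. The responses on either side of the last rank differed only in the third decimal.

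**Figure D3:**
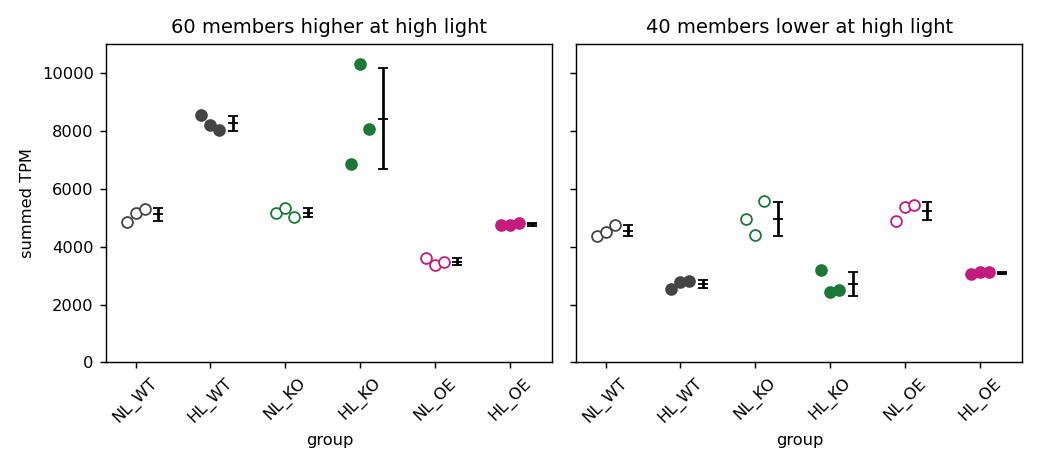
Summed TPM of the 60 members higher at high light (left) and of the 40 members lower at high light (right) in each library, with open points for normal light, filled points for high light and, beside them, the mean with its SD (n = 3). The risen members sum to 3382 to 3599 in NL_OE and 4732 to 4833 in HL_OE, below every high-light library of WT and of the KO-labelled strain.

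Summed over the list, the members that rose took 4856 to 5317 TPM in NL_WT and 8045 to 8558 in HL_WT. In KO-labelled libraries they took 5029.6 to 5346 TPM at normal light and 6869, 10311 and 8074 at high light. In OE-labelled libraries they took 3382 to 3599 TPM and 4732 to 4833. Every high-light sum of the OE-labelled strain was thus below the lowest normal-light sum of WT. The members that fell took 4377 to 4745 TPM in NL_WT and 2542 to 2829 in HL_WT, 4394 to 5568 and 2449 to 3180.0 in KO-labelled libraries, and 4892 to 5439 and 3055 to 3129.8 in OE-labelled libraries. HL_OE sums of the fallen members were above all of HL_WT.

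Within HL_KO the 3 libraries differed in the levels of the members. Replicate 1 held the lowest of the 3 values for 38 of the 60 members that rose and the highest for 32 of the 40 that fell. Replicate 2 held the highest value for 37 of the 60 and the lowest for 23 of the 40. The same counts over all nuclear genes are not given here, and whether other genes differ likewise between these libraries was not tested. The mean log2(TPM + 1) of the risen members minus that of the fallen members was 0.65, 1.57 and 1.13 in HL_KO replicates 1, 2 and 3, beside 1.01, 0.96 and 0.87 in HL_WT and 0.14, 0.07 and 0.08 in HL_OE. At normal light the same difference was -0.63, -0.31 and -0.73 in NL_KO, -0.42, -0.44 and -0.51 in NL_WT and -1.07, -1.24 and -1.23 in NL_OE. On this scale the OE-labelled libraries sat lower than the other strains at both light levels, and HL_WT replicate 1 did not stand apart.

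Strain differences were then tested on the fold change averaged over both light levels, which did not rank the members, in 3 comparisons. The choice still favoured genes with little spread between replicates, and that spread enters the tests. Members can therefore be called more easily than other genes in all 3 comparisons, so the shares of all genes are no like-for-like background. Of the 60 members that rose at high light, 38 were called lower and 2 higher in OE-labelled than in WT libraries. Of the 40 that fell, 18 were called higher and 6 lower. Over all 9912 tested genes 20.5% were called higher and 19.7% lower. The median log2 fold change was -0.50 for the members that rose, 0.41 for those that fell and -0.00087 for all tested genes, and fold changes of the risen members were negative in 54 of 60. Averaging over light is independent of the light difference only where groups have equal spread, and the correlations above show that replicates were less alike in some groups than in others. The values of a single light level entered the light responses that chose the members, so counts within a level are no separate support. Within normal light alone, a comparison chosen after seeing the data, 21 risen members were called lower and 2 higher, and 14 fallen members higher and 5 lower, where 10.9% of all genes were called lower and 11.4% higher. Within high light alone 27 risen members were called lower and 0 higher, with 13 fallen members higher and 3 lower, beside 15.1% lower and 17.0% higher over all genes. With the NL and HL counts of each replicate number summed, likewise chosen after seeing the data, so that a strain has 3 sums and the libraries of a number are not counted apart, 34 risen members were called lower and 0 higher, and 17 fallen members higher and 6 lower. Of all 9961 genes tested on these sums, 1545 were called lower and 1571 higher.

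NO23G00090 showed the largest difference of the list. It was 8.28-fold lower in OE-labelled than in WT libraries (log2 fold change -3.05, SE 0.27, adjusted p = 8.38e-07, edgeR). NO11G02680 was lower as well, by a log2 fold change of -1.66 (SE 0.15, adjusted p = 9.36e-07, edgeR). It stood at 179.9, 166 and 188 TPM in NL_WT and 364, 324 and 348 in HL_WT, against 83.5, 57.9 and 74.6 in NL_OE and 95.6, 115 and 109 in HL_OE, with no overlap between the strains at either light level. In the other direction edgeR called NO05G04660 3.04-fold higher (adjusted p = 0.000381, log2 fold change 1.60, SE 0.28) and NO14G01370 2.29-fold higher (adjusted p = 8.87e-07, log2 fold change 1.20, SE 0.11). NO14G01370 stood at 15.9, 19.3 and 18.6 TPM in NL_WT and 10.6, 9.76 and 9.09 in HL_WT, against 41.0, 42.7 and 44.5 in NL_OE and 23.7, 25.5 and 25.0 in HL_OE. Even at high light its OE-labelled values lay above every WT value.

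Against the KO-labelled strain, with the same OE-labelled libraries and so not as separate evidence, 46 of the 60 risen members were called lower and 2 higher, and 18 of the 40 fallen members higher and 6 lower, where 28.2% of all tested genes were called lower and 26.0% higher. The counts within a light level are again a description only. Within normal light 31 risen members were called lower and 2 higher, and 10 fallen members higher and 6 lower, beside 17.4% of all genes lower and 17.1% higher. Within high light 42 risen members were called lower and 0 higher, and 13 fallen members higher and 6 lower, beside 19.2% and 17.3%. Median log2 fold changes were -0.66 and 0.31, and -0.03 for all tested genes. NO23G00090 was again lowest (log2 fold change -3.30, SE 0.27, adjusted p = 4.37e-07, edgeR), followed by NO11G02680 (-1.66, SE 0.15, adjusted p = 9.82e-07, edgeR). NO05G04660 was highest (1.82, SE 0.29, adjusted p = 0.000109, edgeR), followed by NO03G05710 (1.11, SE 0.21, adjusted p = 0.000441, edgeR). NO03G05710 stood at 9.29, 9.25 and 8.59 TPM in NL_KO and 5.02, 2.64 and 3.43 in HL_KO, against 16.7, 15.4 and 18.9 in NL_OE and 11.0, 11.0 and 9.81 in HL_OE. Its HL_OE values lay above its NL_KO values.

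Between KO-labelled and WT libraries, averaged over light, edgeR called 0 of the 100 members. Over all tested genes it called 27 higher and 8 lower, which is 0.272% and 0.0807%. It also called 0 members within normal light, beside 0.0605% of all genes higher and 0.0706% lower, and 0 within high light, beside 3.25% and 0.383%. At an unadjusted p under 0.05 there were 22 members, beside 16.1% of all genes. DESeq2 called 2 members higher and 0 lower, and limma on log2(TPM + 1) called 0. Median log2 fold changes were 0.12 for the members that rose and 0.02 for those that fell, with single values from -0.45 to 0.70. The count depended on single libraries. Without NL_KO replicate 1, 6 members were called higher, and without HL_WT replicate 1, 2 higher and 1 lower. Without both HL_KO replicate 2 and HL_WT replicate 1, 2 were called higher and 2 lower. Calls over all genes moved as well, from 13 to 798 with 1 library left out, and they rose with DESeq2 and without both libraries. The member counts of these runs are therefore no result about the members.

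**Figure D4:**
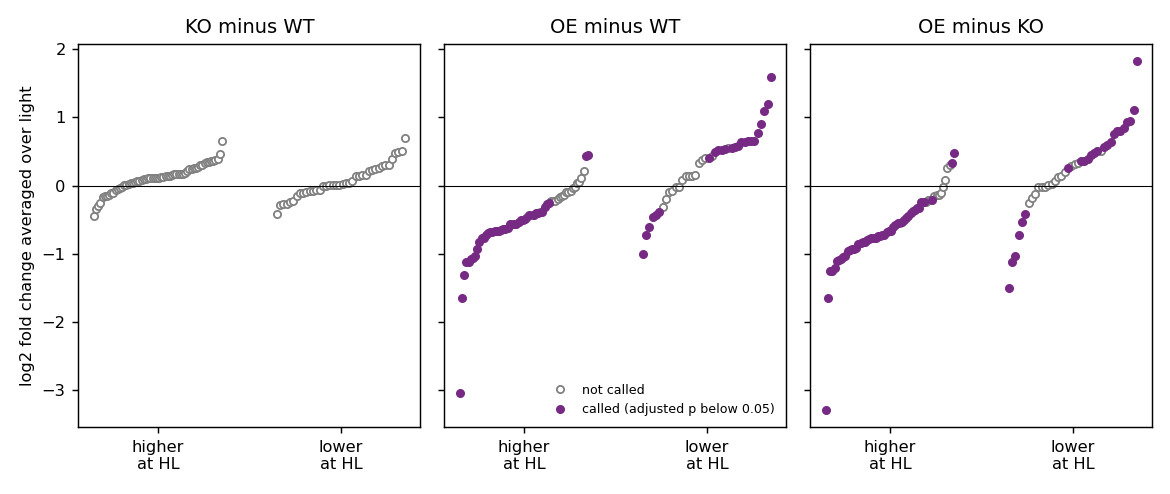
Log2 fold change between strains, averaged over both light levels, for each member that rose and each that fell at high light, with filled points for calls at an adjusted p below 0.05 (edgeR) and open points for the rest. For OE minus WT the members that rose lie mostly below 0 (38 called lower, 2 higher) and those that fell mostly above it (18 called higher, 6 lower), and for KO minus WT no point is filled.

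With HL_KO replicate 2 and HL_WT replicate 1 both left out, 50 members were called lower and 23 higher in OE-labelled than in WT libraries, beside 44 and 20 with every library. With every library 19.7% of all tested genes were called lower and 20.5% higher. The shares without both libraries are not given here, and calls over all genes ran from 3351 to 4840 with 1 library left out. The larger member counts are therefore not read as a result about the members. The list itself was less stable, since 55 of the 100 members stayed when it was chosen without both libraries, and 544 genes (420 higher, 124 lower) then met the conditions. Genes that met the rule but ranked past 100 were compared in the same way. Of the 126 that rose, 73 were called lower and 10 higher in OE-labelled than in WT libraries (median log2 fold change -0.37). Of the 23 that fell, 5 were called higher and 9 lower (median -0.17), so their median had the opposite sign to that of the 40 fallen members. For 46 members the edgeR log2 fold change between OE-labelled and WT libraries was larger in size than their smallest light response, a ratio of mean TPM. That response is the least of 3 and went down to 0.335. The median size of the strain difference was 0.499 for members and 0.337 for all tested genes, so the 46 are no trait of the members. An example is NO02G02140, which was 2.50-fold lower (log2 fold change -1.32, SE 0.12, adjusted p = 9.62e-07, edgeR).

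To read the light response in libraries that took no part in a choice, lists of 100 were chosen by the same rule in 2 strains and read in the third. Lists chosen without WT held 38 genes that rose and 62 that fell. In WT 13 of the 38 rose without overlap and 30 of the 62 fell, which is 34.2% and 48.4%, where 19.6% and 14.8% of all nuclear genes with a mean of at least 5 TPM did so. In the opposite direction 2 of the 38 and 1 of the 62 were separate. Median log2 responses in WT were 0.37 and -0.37. By edgeR 7 of the 38 were called higher and 18 of the 62 lower, where 4.73% and 8.62% of all tested genes were called. The edgeR fit took the spread of each gene from all 18 libraries, so the libraries of the choice enter its calls. Only the TPM values are read apart from the choice, and the edgeR counts for each left-out strain are no separate support. Lists chosen without the KO-labelled strain held 32 and 68 genes. In KO-labelled libraries 15 of the 32 rose and 27 of the 68 fell without overlap, or 46.9% and 39.7%, beside 8.28% and 5.85% of all genes. The medians were 0.47 and -0.69, and 0 genes were separate in the opposite direction. By edgeR 7 of the 32 were called higher and 22 of the 68 lower, beside 1.77% and 1.08% of all tested genes.

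In the OE-labelled strain the genes chosen as lower were separate in both directions. Of the 29 genes chosen as higher in WT and KO-labelled libraries, 11 rose without overlap in OE-labelled libraries, or 37.9% beside 22.9% of all genes. Of the 71 chosen as lower, 17 fell without overlap, or 23.9% beside 17.5%. In the opposite direction 13 of the 71 were separate, where 22.9% of all genes rose without overlap. The median log2 response of these 71 genes was 0.04, although their median smallest response in the strains that chose them had a size of 0.85. A negative response was seen in 30 of the 71, or 42.3%, beside 43.1% of all genes. Of these 71 edgeR, again with the spread taken from all 18 libraries, called 5 lower and 0 higher, where 0.222% of all tested genes were called lower. Of the 29 it called 0, where 0.111% were called higher. The outcome for the 71 moved with the libraries used for the choice. Chosen without HL_KO replicate 2 and HL_WT replicate 1, 22 of 55 genes fell without overlap, or 40.0% beside 17.5% of all genes. Of the 55, 6 were separate the other way, and the median was -0.06. Read without HL_OE replicate 1 or without NL_OE replicate 3, the median of the 71 was -0.01005 or -0.01633. Of the fallen members in the list of 100, 15 were among the 71.

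**Figure D5:**
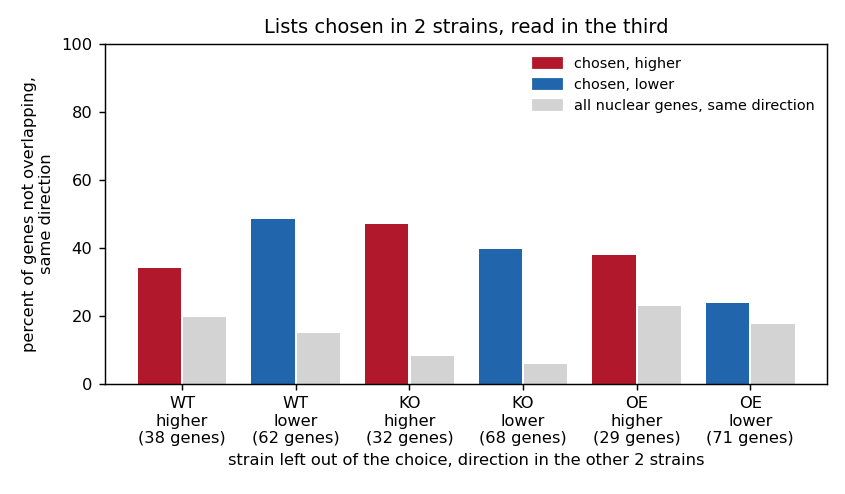
Percent of genes whose 3 high-light and 3 normal-light TPM values were separate in the strain left out of the choice, in the direction seen in the other strains (coloured bars), beside the percent of all nuclear genes separate in that direction (grey bars). The bars for WT (34.2% and 48.4%) and KO (46.9% and 39.7%) stand well above the grey ones, and the bar for genes lower in the others stands at 23.9% beside 17.5% in OE.

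Position in the ID series and gene length were not used in the choice. The members fell in 26 of the 30 ID series, with 12 of them in NO05, which holds 545 genes. Of the members 9 had another member as the next listed ID, where 1.85% of the other nuclear genes that passed the cutoff had a member there. The longest run was NO22G00640, NO22G00650 and NO22G00660, all lower at high light. NO22G00640 averaged 92.5 ± 20.4 TPM in NL_WT and 48.2 ± 14.1 in HL_WT, and NO22G00660 72.8 ± 23.6 and 42.2 ± 6.26 (mean ± SD, n = 3). NO22G00650 stood at 85.2, 99.6 and 86.7 TPM in NL_WT and at 16.5, 81.6 and 72.4 in HL_WT, and at 86.1, 63.5 and 119 in NL_KO and 57.6, 14.1 and 51.6 in HL_KO. Its low values came from HL_WT replicate 1 and HL_KO replicate 2. NO22G00660 was lowest in the same libraries, at 35.1 and 22.1 TPM, and NO22G00640 in HL_WT replicate 1 (32.5) and HL_KO replicate 3 (32.5).

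The sources used here do not say whether counting used strand, so reads of overlapping neighbours cannot be told apart. NO05G04660 and NO05G04670, both lower, were neighbours too. The neighbouring members NO11G02480 and NO11G02490, and NO18G00370 and NO18G00380, moved in opposite directions within each pair. Among 107 further neighbours of risen members, 26.2% rose without overlap in WT, 15.9% in KO-labelled and 25.2% in OE-labelled libraries, beside 19.6%, 8.30% and 22.8% of all genes. Among 67 neighbours of fallen members 17.9%, 5.97% and 22.4% fell, beside 14.8%, 5.86% and 17.4%. Length was close to that of other genes: relative to the median gene, the length implied by the ratio of counts to TPM had a median of 0.940 for risen and 0.945 for fallen members, beside 0.991. No members were near-copies of each other by count, since the closest pair had counts within 5% in 9 of the 18 libraries.

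Likeness of pattern was measured by Pearson's r of log2(TPM + 1) over the 18 libraries, among 9493 genes, as a description in which shared strain and light groups enter. The genes most like NO23G00090 were NO11G02680 (r = 0.989), NO04G03140 (r = 0.983), which met the rule at rank 198, and NO16G00110 (r = 0.977), which did not meet it. NO04G03140 averaged 73.5 ± 6.21 TPM in NL_WT, 129 ± 18.5 in HL_WT, 37.5 ± 2.49 in NL_OE and 42.9 ± 3.59 in HL_OE, the low OE-labelled level being part of the pattern it was chosen for. Those most like NO05G04660 were the members NO12G03960 (r = 0.978), NO22G00660 (r = 0.966) and NO20G01660 (r = 0.956). NO12G03960 stood at 82.1, 104 and 119 TPM in NL_WT and 57.6, 74.4 and 73.7 in HL_WT, against 172, 196 and 185 in NL_OE and 104, 109 and 120.5 in HL_OE.

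Genes with known roles in the light reactions could be read only from the plastid genome, where symbols match. Only some of the matched genes were tested. They were 2 of 9 for photosystem I, 4 of 17 for photosystem II, 2 of 7 for the cytochrome b6f complex, 4 of 7 for the plastid ATP synthase and 1 of 3 for Rubisco. Polyadenylated RNA was sequenced, and how fully it represents plastid transcripts was not tested. Between light levels edgeR called none of these in WT or in OE-labelled libraries, with 0 at an unadjusted p under 0.05 in both. In KO-labelled libraries it called 1 photosystem II gene lower, with 3 of 4 photosystem II genes and 1 of 2 photosystem I genes at an unadjusted p under 0.05. Of the chaperone list, 2 genes were tested and 0 called in each strain, with 1 at an unadjusted p under 0.05 in WT, 1 in KO-labelled and 0 in OE-labelled libraries. Median log2 fold changes of the photosystem II genes, which carry out water splitting, were -0.68 in WT, -1.44 in KO-labelled and -0.50 in OE-labelled libraries. In the same order they were -0.57, -1.30 and -0.69 for photosystem I and 0.12, -0.28 and -0.77 for cytochrome b6f. The plastid ATP synthase had 0.10, -0.63 and -0.65, and the single Rubisco gene -0.60, -1.13 and -0.89. The lists thus did not share a direction in WT. The lists of light harvesting and photoprotection, antioxidants and triacylglycerol synthesis matched 0 genes, because nuclear IDs carry no symbols.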

How the data were processed

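The deposited tables hold expected counts and TPM for 10493 genes in 18 libraries. The expected counts are estimated read counts as deposited by the authors, without normalization, and at least 96.3% were whole numbers in each library; they were rounded before testing. The TPM values, deposited by the authors, are scaled for length and library total. Trim Galore, STAR, Picard and Salmon are named, per the submitters' processing notes; the sources used here give no versions, genome build or annotation. Members were chosen from TPM by the rule in the opening. Rounded counts went into edgeR 4.0.16 (R 4.3.3) (quasi-likelihood, robust, TMM factors 0.894 to 1.08, filterByExpr leaving 9912 genes), 6 groups of 3 together without covariates, with Benjamini-Hochberg adjustment over all tested genes and calls at an adjusted p below 0.05. Alternatives used DESeq2 1.42.0, limma 3.58.1, other scalings, filters and pseudocounts, the replicate number as a block, compared strains only, and each library left out. On data simulated for KO minus WT, with 9875 genes, 83% of 2-fold and 97% of 4-fold changes were recovered, and 6.74% of calls were false. The simulation gave all groups the same spread per gene and changed 100 genes at each fold. Replicates in the data were less alike in some groups than in others, so these rates need not hold for the tests above. Genes were named by rank, abundance, spread of responses, place at the end of the list, size among called members, neighbouring IDs and likeness of pattern; the neighbours NO05G04670, NO11G02480, NO11G02490 and NO18G00380 were named after their values were seen. The members, lists and rules were chosen with earlier results of these data known.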

Additional observations from a re-analysis of the deposited data

How the results depend on the processing

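Of the alternative values for the main results and for NO07G02030, 615 kept their direction and their side of the threshold (counts within 1.5 times), 54 moved and 12 reversed, and for those that moved or reversed the cause was not tested. The 224 values for the members named in the strain comparisons kept both. The OE-labelled comparisons with WT and with the KO-labelled strain kept their counts of members and genes within 1.5 times under each alternative run. KO minus WT did not: 35 genes became 270 with DESeq2, 12 with the compared strains only, 55 with limma on log2(TPM + 1), 139 without both HL_KO replicate 2 and HL_WT replicate 1, 9 with NL and HL counts of a replicate number summed, and 13 to 798 with 1 library left out; members called higher became 2 with DESeq2, 2 without both libraries and 0 to 6 with 1 left out, and lower 2 without both and 0 to 1. The log2 fold change of NO07G02030 for KO minus WT turned to -0.05573 with limma on log2(TPM + 0.1), -0.05479 on log2(TPM + 1), -0.126 without both libraries, -0.01821 with summed counts and between -0.1417 and 0.09595 with 1 left out. Genes that met the rule as lower numbered 105 with TMM-scaled CPM, 124 without both libraries and 63 to 134 with 1 left out; as higher, 420 and 190.0 to 290.0; members that stayed, 55 and 67 to 96. Without both libraries the medians in OE-labelled libraries were 0.5509 and -0.8791 (0.4203 to 0.524 for risen members with 1 left out). Held-out values without both libraries were 75.0% for higher genes in KO (13.7% of all genes), 55.6% in WT (38.5%) and 57.8% in OE (22.9%). They were 40.0% for lower genes in OE (17.5%), with medians of 0.2778 and -0.05603 in OE. In WT and KO groups of 2 against 3 were read, which separate more easily, while OE was still read 3 against 3. With 1 left out they were 34.2% to 57.9% (WT, higher), 48.4% to 66.1% (WT, lower), 46.9% to 65.6% (KO, higher), 39.7% to 63.2% (KO, lower), 37.9% to 58.6% (OE, higher), with medians in OE of 0.1165 to 0.2228 and -0.01633 to 0.1736. The shares of all genes in those runs are not given here. At this depth all 100 members passed the count filter, and whether more depth would change a call was not tested.

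The replicate numbers did not meet the mark for pairing, a correlation over 0.1 in every pair. Deviations of same-numbered libraries correlated between -0.639 and 0.333 across strains (18 pairs), and between -0.192 and 0.512 across light levels within a strain, where 8 of 9 were positive (median 0.109, beside -0.08 for 18 pairs of different number). With the replicate number as a block, genes called were 24 for KO minus WT, 3638 for OE minus WT and 5120.0 for OE minus KO, and 0 members were called for KO minus WT. With summed counts, an alternative chosen after seeing the data, 40 members were called lower and 17 higher for OE minus WT, and 45 and 14 for OE minus KO. Of all 9961 genes tested on these sums, 1545 were called lower and 1571 higher for OE minus WT, and 2330 and 2176 for OE minus KO.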
